A study of Mus musculus with 99 samples.

Results

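Whole spinal cord was compared with the leg muscles gastrocnemius and quadriceps in mice of 10 months. The comparison held 30 libraries, 10 of each tissue, picked by tissue, age and activity in the labels, out of 97 libraries with counts and 99 that the labels name. All 30 came from wild type C57BL/6 males labelled sedentary, and no transgene or agent is named. The animals had been perfused with PBS, a salt solution that rinses the vessels, and RNA was taken from whole frozen tissue. Libraries were made from polyadenylated RNA and each held 30.6 M to 45.0 M reads (M, mega) counted to genes. Each title carries a number, such as 1.1 or 3.3, that recurs in all 3 tissues, and whether it names an animal is not stated. Where nothing says that samples came from separate animals, p-values measure only the spread between these samples. All libraries outside the comparison were from 18 months, and 29 sedentary ones with counts served as a second set.

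Spinal cord holds motor neurons, inhibitory and excitatory interneurons, myelinating oligodendrocytes, astrocytes, microglia and vessels with a blood-brain barrier. A leg muscle consists mainly of multinucleate fibres packed with sarcomeres, the contractile units of actin and myosin, together with vessels, connective tissue, fat cells, satellite cells and the ends of motor axons. Both tissues fire action potentials, pump ions, use calcium as a signal and buffer ATP with creatine. For many of these tasks the genome holds duplicated genes, or paralogues, whose products do related work, and a tissue can read out one copy or the other. In bulk RNA, fewer cells of a type and less RNA per cell cannot be told apart.

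The markers of both tissues matched the labels. Mbp, a major protein of compact myelin, stood at 6673 CPM (the counts-per-million scale) in the lowest cord library, 7302 at the median and 7958.5 in the highest. In gastrocnemius the same 3 values of Mbp were 32.0, 41.2 and 59.5, and in quadriceps 23.9, 26.0 and 34.1. Acta1, the actin of skeletal muscle thin filaments, ranged from 11.95 to 114 CPM in cord with a median of 25.6, and from 27981 to 58045 CPM over the 20 muscle libraries. No cord library overlapped any muscle library for either gene. Gfap, Snap25, Chat and Slc6a5, markers of astrocytes, nerve terminals, cholinergic neurons and glycinergic neurons, were at or below 3.24 CPM in every muscle library.

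A few libraries stood apart from their group. Measured as the root mean square log2 deviation from the tissue mean, gastrocnemius 3.1 stood at 0.557, quadriceps 3.1 at 0.610 and gastrocnemius 2.2 at 0.428, and the other 27 libraries between 0.0841 and 0.205. Cord 3.1 had the highest summed CPM of 15 microglia genes, 497 against 291 to 321 in the other cord libraries. Muscle transcripts in cord were highest in 2 cord libraries, 1.2 and 2.3: the median of 40 sarcomere genes stood at 0.0558% to 0.309% of its muscle level over the 10 cord libraries. The median of 45 neuronal genes in muscle was 0.106% to 0.370% of its cord level. The part of these reads in the results was not tested. No pair of libraries within a tissue agreed within sampling noise, the lowest chi-square per gene being 3.54.

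Most measured genes differed between the tissues. Of 35870 genes in the table, 17950 had enough reads to be tested, and 16637 of those (92.7%) passed edgeR's quasi-likelihood F test at a Benjamini-Hochberg adjusted p of 0.05. Spinal cord was higher for 9522 genes (53%) and muscle for 7115 (39.6%). Because so many genes pass a test of no difference, a second test asked whether the difference exceeded 2-fold: 6523 genes (36.3%) were more than 2-fold higher in cord and 3872 (21.6%) more than 2-fold higher in muscle. The log2 fold change, cord over the mean of both muscles, had a median of 0.31 over all tested genes and quartiles of -0.90 and 2.27. Cord expressed more genes, with 13816 at 1 CPM or more in all 10 libraries against 11445 in all 20 muscle libraries. More of the muscle reads came from a few genes: the 10 most abundant took 21.8% to 32.6% of muscle reads and 6.82% to 7.41% of cord reads. At least 1000 CPM was averaged by 113 genes in muscle and 31 in cord. CPM here is divided by the scaling factors given below, so this limit is laxer for muscle and the counts are not shares of RNA.

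The direction of small differences depends on the scaling. The values here use trimmed-mean (TMM) factors, which were 1.62 to 1.75 in cord and 0.646 to 0.819 in muscle. With plain library totals the median log2 fold change moved toward cord by 1.125, and the calls became 13630 higher in cord and 3340 higher in muscle. The share of calls that were higher in cord was then 80.3%, against 57.2% with TMM factors. Directions within about 1 log2 unit of zero are therefore given relative to the scaling, and some larger ones also depend on it, as for Hoxc10 below.

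**Figure D1:**
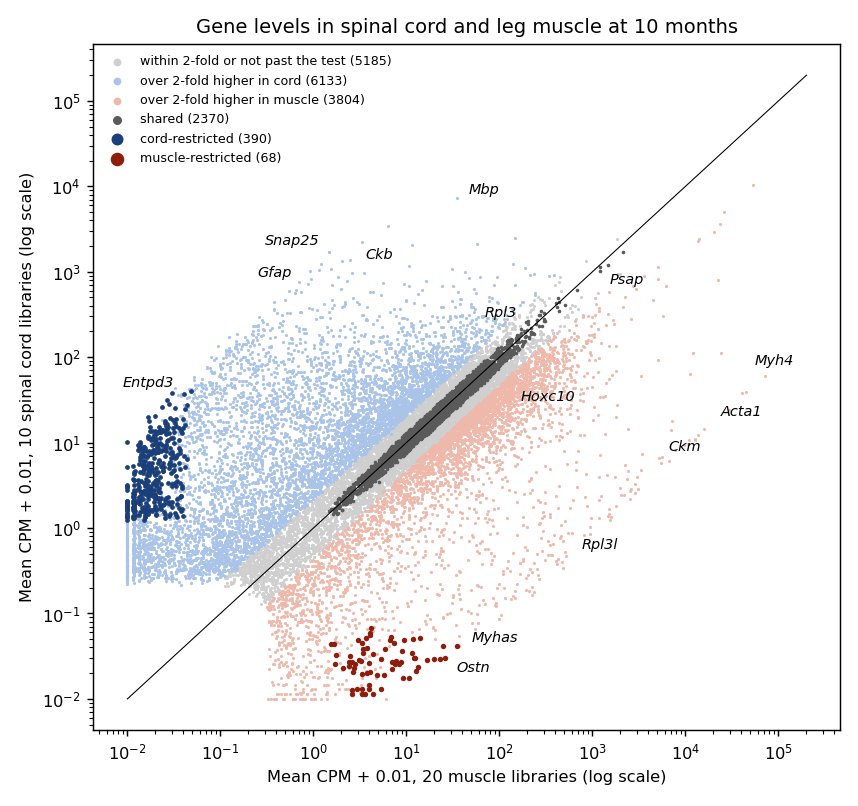
Mean level of each of the 17950 tested genes in 20 muscle libraries (horizontal axis, CPM + 0.01, log scale) and in 10 spinal cord libraries (vertical axis, CPM + 0.01, log scale), with equal levels on the diagonal. Shared genes (2370) lie along the diagonal, the 390 cord-restricted genes at the left edge and the 68 muscle-restricted genes at the bottom, and the most abundant muscle genes, such as Myh4 and Ckm, still have reads in cord.

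Myelin genes were higher in spinal cord throughout their list, whose summed level was 13797 to 16383 CPM in cord and 54.0 to 126 CPM in muscle. All 20 oligodendrocyte and myelin genes were more than 2-fold higher in cord, beside 36.3% of all tested genes, with a median log2 fold change of 8.74. Mobp, which encodes a protein of central myelin, had 1590.3, 1645 and 1948 CPM as lowest, median and highest cord values and at most 3.81 CPM in muscle. Its log2 fold change was 10.31 ± 0.23 (SE; edgeR adjusted p = 6.41e-24). Mog, which encodes another myelin protein, had a log2 fold change of 10.02, and the lineage factors Olig1, Olig2 and Sox10 had 10.03, 10.50 and 5.54. Opalin, a protein of oligodendrocyte membranes, had the largest fold among named genes at 10 CPM or more: 11.1 to 23.3 CPM in cord, a total of 4 reads in gastrocnemius and none in quadriceps. The lowest members were Aspa (2.24), which breaks down N-acetylaspartate, and Tspan2 (3.88), a membrane tetraspanin.

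Cholesterol, the main lipid of myelin, is made in the central nervous system itself, and the genes of its synthesis were higher in cord as a group. Of 19 genes, 18 were higher in cord at the F test (53% of all genes) and none in muscle, and 11 were more than 2-fold higher. Sqle, squalene epoxidase, had 50.2, 60.3 and 65.4 CPM in cord and at most 5.90 CPM in muscle, without overlap (log2 fold change 3.91 ± 0.07). Msmo1 and Cyp51, which act on the sterol ring, had 3.60 and 3.53. Fdft1, squalene synthase, was the exception at -0.17 ± 0.11 and met the rule for shared genes given below.

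Peripheral myelin genes were also higher in whole spinal cord than in muscle, and varied among the cord libraries. Prx, the periaxin of Schwann cells, had 47.4, 145 and 199 CPM as lowest, median and highest cord values, and averaged 136 CPM in cord, 13.8 in gastrocnemius and 9.46 in quadriceps. Of 12 Schwann cell and peripheral myelin genes, 11 were higher in cord, although S100b and Sox10 among them also belong to central glia. The summed CPM of Prx and Pmp22 ran from 185 in cord 1.2 to 629 in cord 2.1, and from 27.0 to 74.9 in muscle. Of 9 tested genes of meninges and sensory ganglia, 6 were higher in cord and 3 in muscle, beside 53% and 39.6% of all tested genes. Ptgds, which makes prostaglandin D2, had 9.72 and Scn9a, a sodium channel of sensory neurons, was cord-restricted, whereas Avil, advillin, was higher in muscle (-4.62 ± 0.19). The part of nerve roots or meninges in these results was not tested.

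Neuronal genes were higher in cord without exception in their lists. All 25 synaptic and neuronal genes and all 20 interneuron transmitter genes were more than 2-fold higher in cord, beside 36.3% of all tested genes. The list medians were 7.57 and 9.49. Slc6a5, the glycine transporter of inhibitory terminals, had 246 CPM in the lowest cord library, 291 at the median and 350 in the highest, and no more than 0.805 CPM in any muscle library (log2 fold change 10.21 ± 0.19; edgeR adjusted p = 5.68e-26). Slc17a6, the vesicular glutamate transporter of spinal excitatory neurons, had 10.69, whereas its relatives Slc17a7 and Slc17a8 reached only 0.655 and 0.840 CPM in cord. Gad1 and Gad2, which make GABA, had 10.05 and 9.72. The peptide genes Sst, Tac1 and Pdyn had 9.64, 8.10 and 10.23, and Penk, the enkephalin precursor, had 3.87, with 8.18 and 10.43 CPM on average in the muscles. Vamp2 was the least selective synaptic gene, at 206 CPM in cord and 61.9 and 64.3 CPM in the muscles (1.73 ± 0.06).

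Motor neuron genes were higher in cord in 14 of 14 cases, 13 of them by more than 2-fold, beside 53% and 36.3% of all tested genes. Chat, which makes acetylcholine, had 15.6, 18.3 and 22.1 CPM in cord. Across the muscles, whose motor endings are supplied by these cells, Chat had 8 reads in all, of which quadriceps had none. The neurofilaments Nefl, Nefm and Nefh averaged 1241, 1016 and 761 CPM in cord with log2 fold changes of 10.09, 10.17 and 10.16. Esrrg, a nuclear receptor found in some motor neurons and in oxidative muscle, was the least selective (0.56 ± 0.09). Isl2, a factor of motor and sensory neuron identity, met the rule for cord-restricted genes.

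Astrocyte and microglia genes separated the tissues less evenly. Of 18 astrocyte genes 16 were higher in cord, beside 53% of all tested genes. Slc1a2, the main glutamate transporter, and Mlc1 had 9.90 and 9.95. Aqp4, the water channel of astrocyte endfeet and of fast muscle fibres, had 244 to 335 CPM in cord and 1.34 to 37.3 CPM in muscle (3.83 ± 0.23); its 2 lowest muscle values were those of number 3.1. Ndrg2 went the other way (-2.01 ± 0.06). All 15 microglia genes were higher in cord, 9 of them by more than 2-fold, beside 53% and 36.3% of all tested genes. Cx3cr1, the fractalkine receptor, had 24.0, 25.1 and 34.2 CPM in cord and 0.275 to 2.39 in muscle. Sall1, a factor that marks microglia among macrophages, had a log2 fold change of 9.13, whereas the complement genes C1qa, C1qb and C1qc, which other macrophages also express, had only 0.76, 0.86 and 0.75.

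**Figure D2:**
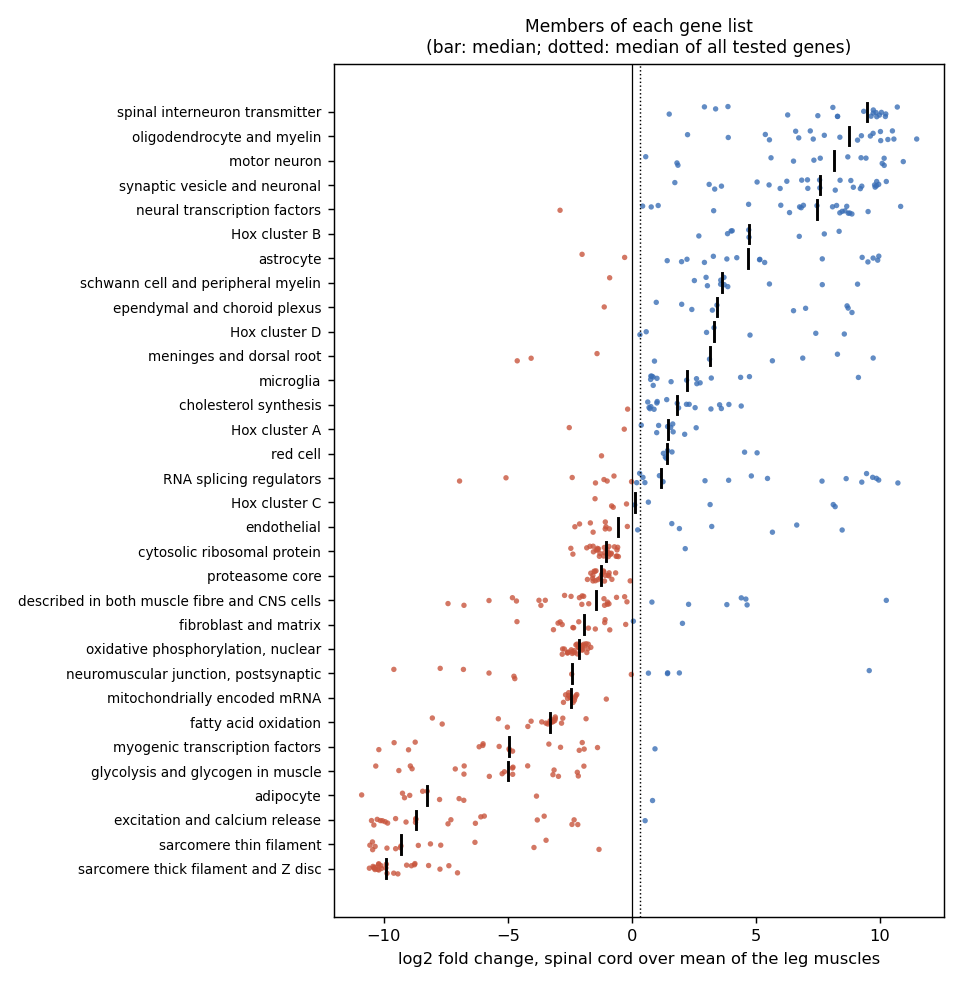
Each point is 1 gene of the list named on the vertical axis, placed by its log2 fold change, spinal cord over the mean of the leg muscles (horizontal axis), blue when above zero and red when below; black bars are list medians and the dotted line is the median of all tested genes, 0.31. Neuronal and myelin lists have medians of 7.57 to 9.49, sarcomere lists of -9.92 and -9.31, and the Hox C list has the median nearest zero, 0.11.

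Sarcomere genes were the mirror image in muscle. All 25 genes of the thick filament and Z disc and all 15 of the thin filament were more than 2-fold higher in muscle, beside 21.6% of all tested genes, with medians of -9.92 and -9.31. Myh4, the fastest skeletal myosin heavy chain, had 51552 to 89331 CPM over the muscle libraries and 19.7, 36.1 and 195 CPM in cord (-10.58 ± 0.42). The slow and cardiac forms differed less: Myh7 had -7.03, Tnnc1 -6.33 and Tnni1 -3.46. Tpm3, a tropomyosin also used outside sarcomeres, had -1.33 ± 0.07, with 66.8 CPM in cord.

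Genes that couple excitation to contraction followed, with 22 of 23 more than 2-fold higher in muscle (21.6% of all tested genes) and a median of -8.71. Atp2a1, the calcium pump of the fast sarcoplasmic reticulum, had 38702 to 58058 CPM in muscle and 13.5, 25.8 and 108 CPM in cord (-10.50 ± 0.40). Ryr1, the calcium release channel, had 4726 to 6654 CPM in muscle and 2.49 to 13.5 in cord. Pvalb, a calcium buffer of fast fibres and of some interneurons, had 53.5 to 83.6 CPM in cord and 5176 to 18666 CPM in muscle (-7.41 ± 0.16). Atp2a2, the pump of slow fibres and of most other cells, was the only member higher in cord (0.53 ± 0.08).

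The energy metabolism lists were higher in muscle throughout. All 20 listed genes of glycolysis and glycogen in muscle were more than 2-fold higher there. So were all 20 fatty acid oxidation genes and all 31 nuclear genes of oxidative phosphorylation. The share over all tested genes was 21.6%, and the list medians were -4.98, -3.30 and -2.13. The glycolysis list was drawn up for muscle and leaves out Eno2 and Ldhb, which were higher in cord (8.82 and 0.81). Cd36 and Lpl, which take up and release fatty acids, led fat oxidation at -8.04 and -7.65. Respiratory chain subunits spanned a narrow range, from Uqcrb at -2.81 to Cox6c at -1.66. Mitochondrially encoded mRNAs were lower in cord in 13 of 13 cases, beside 39.6% of all tested genes. They took 4.18% to 4.87% of cord reads, 7.15% to 11.8% in gastrocnemius and 10.204% to 18.2% in quadriceps. Counts of COX2, COX3, ATP6, ATP8 and ND4L averaged at most 10.9 CPM in cord beside 10276 CPM for COX1, and how reads shared with nuclear copies were counted is not given in the sources used here. Cpt1b, the muscle form of the carnitine transferase, had only 1.003 and 1.18 CPM in the muscles; 81.4% of its exon bases also belong to another gene model on the same strand in GENCODE M21, and its values are uncertain.

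Transcription factors of muscle identity were higher in muscle in 17 of 18 cases, beside 39.6% of all tested genes. Myf6, the myogenic factor most abundant in adult fibres, had 79.6 to 255 CPM in muscle and 0 to 0.2504 CPM in cord (-10.20 ± 0.18), and its 2 highest muscle values were those of number 3.1. Tbx15 and Myod1 had -9.58 and -9.004. Pax7, the factor of satellite cells, and Myf5 were muscle-restricted at 2.996 to 3.05 and 1.44 to 1.62 CPM on average. Lbx1, which acts both in migrating limb muscle precursors and in dorsal interneurons, was higher in muscle (-3.35 ± 0.07), at 92.1 and 91.0 CPM against 8.93 in cord. Pax3 alone was higher in cord than the mean of both muscles (0.93 ± 0.17). Of 23 neural transcription factors 22 were higher in cord (53% of all tested genes) and 8 were cord-restricted. En1, a factor of V1 interneurons, was the exception, with 1.42 CPM in cord against 11.8 in gastrocnemius and 9.62 in quadriceps (-2.90 ± 0.09).

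Genes of the neuromuscular junction went both ways. Of 13 tested, 5 were higher in cord and 7 in muscle, near the shares of all tested genes (53% and 39.6%). Chrnd, the delta subunit of the acetylcholine receptor, had 2.65 to 4.50 CPM in muscle and 1 read in all 10 cord libraries together. Chrne, Musk, Chrna1, Chrnb1 and Rapsn had -7.73, -6.79, -5.76, -4.76 and -4.72. Nrg1, neuregulin, which motor axons release, had 9.56 ± 0.13, and Ache, the enzyme that breaks down acetylcholine, 1.91 ± 0.13. Etv5, Utrn and Lrp4 were also higher in cord, at 1.44, 1.43 and 0.66. Dok7, the adaptor that activates MuSK, had nearly the same level in both tissues: 18.8 to 22.4 CPM in cord and 16.3 to 28.1 in muscle (-0.02 ± 0.05). Without the libraries of number 3.1 and gastrocnemius 2.2 its value was -0.18, and with library totals 1.102.

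Genes of vessels went both ways, and those of fat and connective tissue mostly toward muscle. Of 16 endothelial genes 6 were higher in cord and 9 in muscle, beside 53% and 39.6% of all tested genes. Those higher in cord included transporters and junction proteins of the blood-brain barrier: Slco1a4 (8.47 ± 0.12), Mfsd2a (6.64), Ocln (5.66), Slc2a1 (3.22) and Cldn5 (1.91). Slco1a4 had 45.0, 46.8 and 51.4 CPM in cord and at most 0.344 CPM in muscle. Of the pan-endothelial genes, Cdh5 was higher in muscle, at 14.4 to 19.6 CPM in cord and 51.9 to 105 in muscle (-2.30 ± 0.09), as were Kdr (-2.11) and Pecam1 (-1.68). With library totals 9 of the 16 were higher in cord and 4 in muscle, and Emcn and Flt1 turned. Fat cell genes were higher in muscle in 10 of 11 cases. Lep, leptin, had no read in cord and 0.533 to 16.8 CPM in muscle, at least 1264-fold higher than a floor of 3 reads over the cord libraries. Scd1, the desaturase that myelinating cells also use, went against the rest (0.83 ± 0.31). Fibroblast genes were higher in muscle in 13 of 16 cases, led by Dpt (-4.63), and Sparc, which astrocytes and endothelium also express, was higher in cord (2.04 ± 0.07). With library totals 10 of the 16 fibroblast genes were higher in muscle and 3 in cord. The summed level of this list overlapped between the tissues, at 1092 to 1496 CPM in cord and 540 to 2025 CPM in muscle. Red cell genes were higher in cord in 7 of 8 cases, their summed level running from 212 to 714 CPM in cord and from 77.3 to 846 CPM in muscle.

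Tissue restriction was asked as a matter of level, with no test. A gene was called cord-restricted when it had at least 1 CPM in all 10 cord libraries and less than 0.1 CPM in all 20 muscle libraries, and muscle-restricted in the reverse case. This gave 390 cord-restricted and 68 muscle-restricted genes, of which 279 and 28 have names other than predicted or unnamed transcripts. Their levels were modest: the median was 3.61 CPM in cord for the first set, the highest 40.3 CPM (Entpd3), and 4.0985 CPM in muscle for the second, the highest 35.0 CPM (Myhas). No gene at 100 CPM or more in every library of its tissue was restricted by this rule, out of 857 genes more than 2-fold higher in muscle and 530 in cord. Of the cord-restricted genes, 30 had no read in any muscle library, and no muscle-restricted gene was without reads in cord.

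The gene lists hold few of the cord-restricted genes, among them 8 neural transcription factors and 3 transmitter genes of interneurons. The most abundant are named here. Entpd3, an enzyme that hydrolyses nucleotides outside cells, had 36.1, 41.0 and 44.3 CPM in cord and at most 0.0985 CPM in muscle, close to the upper limit. Pou3f3, a POU factor of neurons and glia, had 27.2, 31.3 and 37.2 CPM in cord and 10 reads in all muscle libraries together. The next by level were Ralyl at 38.3 CPM, Fstl5 at 28.5, Pls1 at 27.4, Olfm3 at 26.1, Actl6b at 25.4, Gabra2 at 25.1 and Cdh8 at 20.4 CPM on average. Actl6b is the neuronal subunit of a chromatin remodelling complex, Gabra2 a subunit of the GABA receptor and Cdh8 a cadherin of neuronal contacts. Khdrbs2, a splicing regulator of neurons, averaged 5.16 CPM in cord and had no read in muscle, at least 1013-fold higher than the floor of 3 reads over the muscle libraries.

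Muscle-restricted genes held no contractile filament gene of the sarcomere lists, and each of those 40 had 0.1 CPM or more in at least 1 cord library. Ostn, osteocrin, a peptide secreted by muscle and bone, had 5.65, 43.8 and 63.9 CPM in gastrocnemius and 1.09, 10.6 and 18.3 in quadriceps, and at most 0.0320 CPM in cord. In both muscles the lowest value was that of number 3.1. Myhas is an antisense transcript beside the fast myosin genes; it had 5.18 to 51.2 CPM in muscle and at most 0.0737 in cord, and 25.4% of its exon bases overlap Myh1, so that without strand its reads and those of Myh1 cannot be told apart. Six2, a homeobox factor, had 10.7 to 31.1 CPM in muscle and at most 0.0623 in cord. The others by level were Mettl11b, Slc15a5, Snai3, Cidec, Aqp7, Plin1 and Atp1b4, at 6.57 to 27.3 CPM in gastrocnemius. Cidec, Plin1 and Aqp7 are genes of fat cells: the summed level of 12 fat cell genes was 1627 to 3312 CPM in muscle and 384 to 477 CPM in cord.

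The limits set the counts. With an upper limit of 0.5 CPM in the other tissue there were 1305 cord-restricted and 233 muscle-restricted genes, and with at least 5 CPM required in the tissue itself there were 132 and 11. Library totals gave 662 and 32. Without the libraries of number 3.1 and gastrocnemius 2.2 the counts were 394 and 97, and without cord 1.2 and 2.3 they were 402 and 75.

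Shared genes were defined by an interval, since a p that misses a threshold does not show that levels are alike. A gene was called shared when it had at least 1 CPM in all 30 libraries and the 95% interval of its log2 fold change lay within 0.5 of zero, which is 1.41-fold either way. Of 10784 genes at that level, 2370 (21.98%) were shared. Among them 747 were still called higher in cord, 750 higher in muscle, and 873 did not pass the F test. Against each muscle taken alone 1873 of the 2370 also met the rule. Zero here means equal after TMM scaling: with library totals 1700 genes met the rule and none of them was among the 2370.

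The most abundant shared genes named here included genes of signalling, lysosomes and RNA handling. Gnas, the stimulatory G protein subunit, had 1126 to 1309 CPM in cord and 1206 to 1588 in muscle. Its log2 fold change was -0.28 ± 0.05, so that it was both shared and called although the groups overlapped, and its reads cannot be parted from overlapping transcripts of its imprinted locus. Psap, the precursor of lysosomal saposins, had 1056 to 1169 CPM in cord and 1066 to 1322 in muscle (-0.10 ± 0.04). The others by level were Hspa8, Kif1b, Ddx5, Ctsb, Cst3, Srrm2 and Tecr, at 351 to 1028 CPM in cord. Ctsb and Cst3 encode a lysosomal protease and a protease inhibitor, Hspa8 a chaperone and Ddx5 an RNA helicase. Ptbp3, a splicing regulator, had -0.01 ± 0.07 with 11.99 to 17.4 CPM in cord and 10.5 to 18.2 in muscle, and Pdgfra, a receptor of oligodendrocyte precursors in cord and of fibro-adipogenic cells in muscle, had 0.06 ± 0.10.

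**Figure D3:**
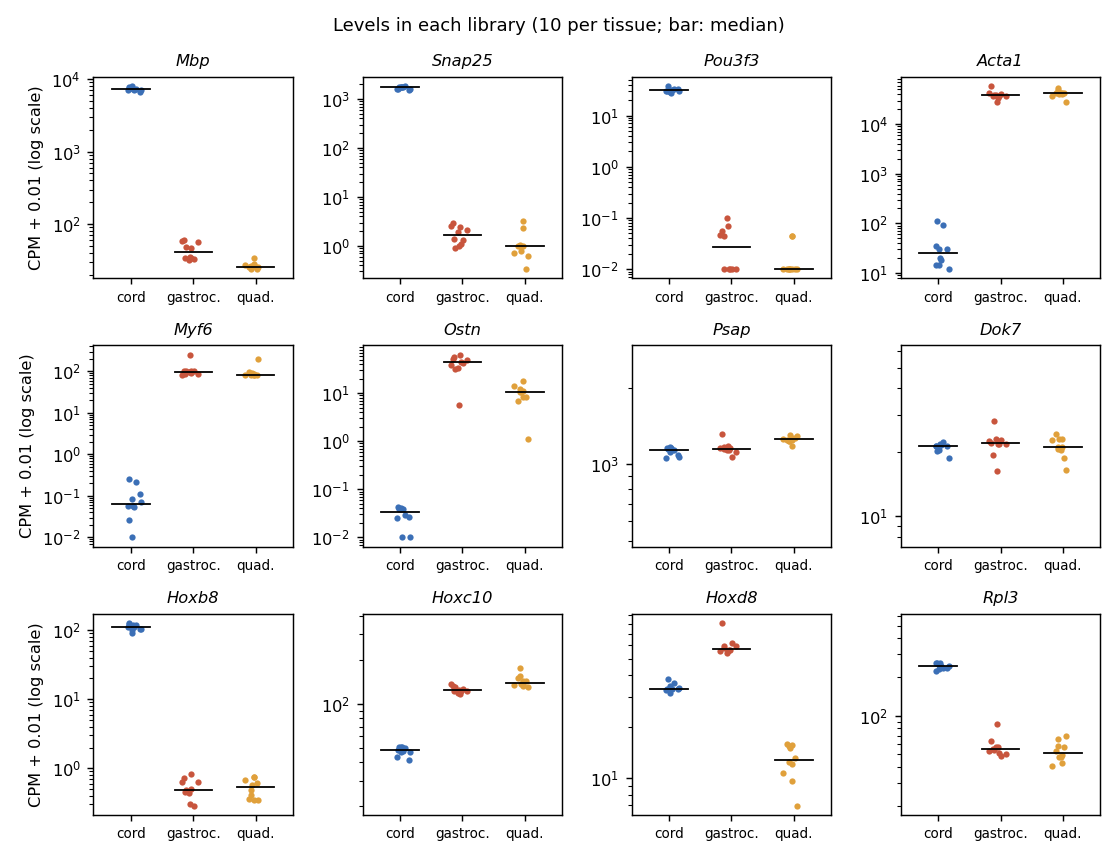
Level of 12 genes in every library (vertical axes, CPM + 0.01, log scale; 10 libraries each of spinal cord, gastrocnemius and quadriceps on the horizontal axis; bars are medians). On this scale cord and muscle do not overlap for Mbp, Snap25, Pou3f3, Acta1, Myf6, Ostn, Hoxb8, Hoxc10 and Rpl3, they overlap for Psap and Dok7, and for Hoxd8 the cord lies between the muscles.

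A paralogue switch was defined from levels per length, on the transcripts-per-million scale (TPM). A pair of related genes was counted when the muscle form had the higher TPM in all 20 muscle libraries and the cord form the higher TPM in all 10 cord libraries. Of 69 pairs named from background knowledge, 48 met this, and in 40 of the 48 each form was also called higher in its own tissue. In 9 pairs the muscle form led in every library of all tissues, as for Slc25a4 over Slc25a5, Pfkm over Pfkp and Bin1 over Amph, and 12 pairs were mixed. The log2 ratio of cord form to muscle form was higher in cord than in muscle for 66 of the 69 pairs. These ratios are taken within a library and do not depend on scaling between libraries. The pairs were chosen with earlier results of these data known, so their ratios are a description with no test.

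Creatine kinase, which moves phosphate between ATP and creatine, showed the switch at both of its sites. Ckb, the cytosolic brain form, had 1026, 1148 and 1313 CPM in cord and 3.55 to 15.1 in muscle, and Ckm, the muscle form, had 4.40, 9.37 and 40.7 CPM in cord and 11789 to 19955 in muscle. As a share of both TPM values, Ckb was 98.8% in cord and 0.0634% in muscle, and the log2 ratio differed by 17.38 ± 1.04 (SD, n = 10). For the mitochondrial forms Ckmt1 and Ckmt2 the difference was 19.89 ± 1.09, the largest of all pairs. Enolase, a step of glycolysis, behaved alike: Eno2 had 626 to 743 CPM in cord and 0.850 to 2.89 in muscle, Eno3 9.07 to 25.9 in cord and 2481 to 10415 in muscle, and the log2 ratio differed by 17.66 ± 0.55.

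The promoter windows of these pairs are printed because the partners differed in opposite directions between the same libraries. Each runs from 250 bases before to 50 bases after the gene start in RefSeq (GRCm38.p6), 5′ to 3′ on the gene's strand. Capitals mark matches to the E-box CAGCTG of myogenic factors, the TATA box TATAAA and the MEF2 site, searched on both strands, and the MEF2 match in Ckb overlaps its TATA box. The windows lie at chr7:19410844-19411143 (plus strand) for Ckm, chr12:111672289-111672588 (minus) for Ckb, chr11:70656926-70657225 (plus) for Eno3 and chr6:124769624-124769923 (minus) for Eno2.
Ckm: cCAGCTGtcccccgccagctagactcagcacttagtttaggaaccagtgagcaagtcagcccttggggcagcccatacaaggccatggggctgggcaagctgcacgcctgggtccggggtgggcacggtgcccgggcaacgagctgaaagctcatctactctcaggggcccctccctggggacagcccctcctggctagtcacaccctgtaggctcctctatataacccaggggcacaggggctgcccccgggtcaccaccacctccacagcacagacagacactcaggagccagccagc
Ckb: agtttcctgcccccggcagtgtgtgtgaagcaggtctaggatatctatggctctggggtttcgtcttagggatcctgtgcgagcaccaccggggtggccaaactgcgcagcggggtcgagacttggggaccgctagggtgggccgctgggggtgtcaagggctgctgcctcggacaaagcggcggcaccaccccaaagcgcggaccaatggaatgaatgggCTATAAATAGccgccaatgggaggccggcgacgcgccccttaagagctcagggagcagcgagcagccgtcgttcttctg
Eno3: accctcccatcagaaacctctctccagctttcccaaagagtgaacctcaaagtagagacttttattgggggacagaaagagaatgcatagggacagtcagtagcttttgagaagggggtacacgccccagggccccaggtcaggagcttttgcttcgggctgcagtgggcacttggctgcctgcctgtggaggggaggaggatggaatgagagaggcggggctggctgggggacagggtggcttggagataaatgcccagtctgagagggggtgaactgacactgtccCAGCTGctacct
Eno2: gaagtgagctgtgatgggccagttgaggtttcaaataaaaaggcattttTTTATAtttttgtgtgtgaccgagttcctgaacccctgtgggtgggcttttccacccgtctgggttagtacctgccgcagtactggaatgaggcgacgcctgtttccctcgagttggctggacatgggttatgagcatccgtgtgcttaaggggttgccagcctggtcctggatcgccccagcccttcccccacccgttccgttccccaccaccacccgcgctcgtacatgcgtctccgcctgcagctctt
Both muscle forms had 1 match to CAGCTG and both cord forms none, and the cord forms held matches to TATAAA. That in Eno2 is on the opposite strand and far from the gene start. The Ckm window holds tatataa, which the exact string misses, so the matches do not part the forms by TATA box. Counted over all windows of tested genes, CAGCTG occurred in 16.6%, and a match describes the letters, not a site in use. The muscle forms were poorer in CpG: the observed over expected ratio was 0.226 for Ckm and 0.129 for Eno3, against 0.755 for Ckb and 0.631 for Eno2.

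CpG content also differed over the gene classes, as a description with no test. Windows were found for 13759 of the 17950 tested genes, 17604 windows in all, since some genes have more than 1 start. The median CpG ratio was 0.688 over all of them, 0.798 for shared genes, 0.594 for genes more than 2-fold higher in cord, 0.646 for those higher in muscle, 0.488 for cord-restricted and 0.188 for muscle-restricted genes. For the sarcomere lists it was 0.239, and CAGCTG occurred in 41.2% of their 34 windows, against 23.3% of 43 neuronal windows. In the broader classes CAGCTG was in 17.9% of windows of genes more than 2-fold higher in cord and 18.5% of those higher in muscle, and in 20.5% of cord-restricted and 19.7% of muscle-restricted windows. TATAAA, found above in the cord forms, was in 8.32% of all windows, 20.6% of sarcomere, 14.8% of muscle-restricted, 10.42% of cord-restricted and 6.98% of neuronal windows. The MEF2 site was found in 0.557% of all windows, in 1.43% for genes more than 2-fold higher in muscle and in 0.440% for those higher in cord. RE1, the site of the neuronal repressor REST, was found in 1.49% of cord-restricted windows (5 of 336) and in 0.307% of all windows. M-CAT, with the letters CATTCCT, was in 4.47% of all windows. The CArG box of serum response factor was in 1.38% of all, 17.6% of sarcomere (6 of 34) and 6.98% of neuronal windows (3 of 43).

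**Figure D4:**
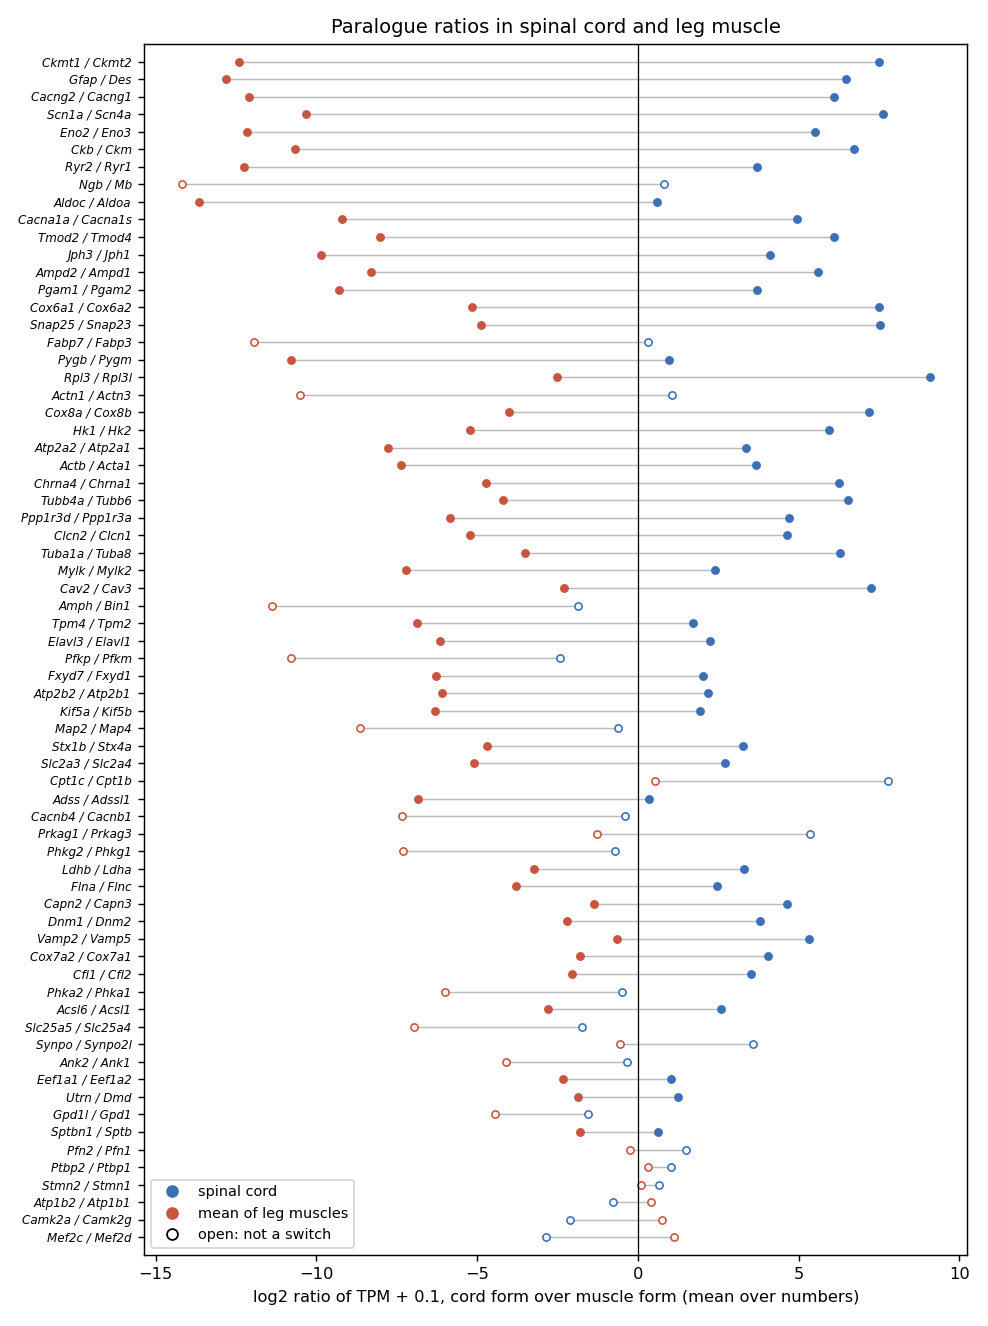
Log2 ratio of TPM + 0.1, cord form over muscle form (horizontal axis), for 68 paralogue pairs (vertical axis), with the mean in spinal cord in blue and the mean of the leg muscles in red; filled points mark the 47 of these that met the rule for a switch. Ckmt1 / Ckmt2 has the largest difference, 19.89, and the lowest 3 pairs, Mef2c / Mef2d, Camk2a / Camk2g and Atp1b2 / Atp1b1, go the other way.

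Further switches ran through glycolysis and the respiratory chain. Aldoc made up 60.1% of aldolase TPM in cord, where Aldoa remained abundant, and 0.0077% in muscle. Hexokinase passed from Hk1 in cord (98.4%) to Hk2 in muscle (2.53% Hk1), phosphoglycerate mutase from Pgam1 (92.3%) to Pgam2 (0.152% Pgam1), and glycogen phosphorylase from Pygb (66.2%) to Pygm (0.0555% Pygb). Ldhb, the heart-type lactate dehydrogenase, had 351 to 438 CPM in cord and 112 to 336 CPM in muscle, a small difference (0.81 ± 0.08), and Ldha had 51.8 to 71.0 CPM in cord and 1312 to 4869 in muscle. Cytochrome oxidase exchanged 3 small subunits: Cox6a1 was 99.3% of its pair in cord and 2.74% in muscle, Cox8a 99.3% and 5.84%, and Cox7a2 94.3% and 21.95%. Cox7a2 itself was higher in muscle (-1.18), so that pair switched without opposite calls.

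The ribosome carried a switch of its own. In GENCODE M21 (GRCm38) Rpl3 lies at chr15:80077791-80091868 on the minus strand and Rpl3l at chr17:24727820-24736143 on the plus strand. Rpl3, a core protein of the large subunit, had 221, 244 and 258 CPM in cord and 41.0 to 86.5 in muscle (2.15 ± 0.06), and Rpl3l, its striated muscle paralogue, had 0.433 to 1.71 CPM in cord and 375 to 882 in muscle (-9.47 ± 0.20). Rpl3 made up 99.8% of the pair in cord and 15.04% in muscle. Of 30 ribosomal protein genes Rpl3 was the only member higher in cord with TMM scaling. The other 29 were higher in muscle, beside 39.6% of all tested genes. With library totals 13 were higher in cord and 12 in muscle. Elongation factor 1 alpha also passed from Eef1a1 (67.1% in cord) to Eef1a2 (16.7% Eef1a1 in muscle). Rpl3, Eef1a1, Actb and Tuba1a have many pseudogene copies, and how reads shared with those were counted is not given in the sources used here.

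Ion channels and vesicle proteins switched in the same way. The ryanodine receptor passed from Ryr2, at 61.8 to 84.5 CPM in cord and at most 0.471 in muscle, to Ryr1, with a difference in log2 ratio of 15.96 ± 0.75. The sodium channels Scn1a and Scn4a differed by 17.96, the calcium channel subunits Cacna1a and Cacna1s by 14.14 and Cacng2 and Cacng1 by 18.17, and the junctophilins Jph3 and Jph1 by 13.96. Snap25, the neuronal SNARE, had 1499, 1741 and 1818 CPM in cord and 0.324 to 3.24 in muscle, and Snap23, its general form, had 9.28 to 11.4 in cord and 32.9 to 56.2 in muscle. The intermediate filaments Gfap and Des, of astrocytes and of muscle fibres, differed by 19.29.

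In 3 pairs the ratio went the other way. Mef2c had a TPM of 193 in muscle and 8.32 in cord, and the log2 ratio to Mef2d differed by -3.98 ± 0.65. Camk2a, the kinase subunit best known from forebrain synapses, had 199 TPM in muscle and 90.5 in cord, and its log2 ratio to Camk2g differed by -2.86 ± 0.43. For the sodium pump beta subunits Atp1b2 and Atp1b1 the ratio differed by -1.18 ± 0.14. The reads of the Camk2a gene were not resolved by transcript, so an isoform of muscle cannot be told from the neuronal one.

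Splicing regulators were called in both directions. Of 26 tested, 18 were higher in cord and 7 in muscle, beside 53% and 39.6% of all tested genes. The neuronal Elavl2, Elavl3 and Elavl4 had 9.70, 9.94 and 9.85, Rbfox3 9.26, Celf4 8.63 and Nova1 3.90. Rbm24 and Rbm20, which act on sarcomere transcripts, had -6.95 and -5.08, and Mbnl1 -2.41. Elavl1, Qk and Ptbp3 were shared. Mbnl2 (-0.72) turned to cord with library totals.

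Hox genes, which record position along the body axis, were counted by cluster, with no test between clusters. Cluster B was higher in cord in 9 of 9 tested genes, cluster D in 7 of 7 and cluster A in 9 of 11, beside 53% of all tested genes. Of the 9 genes of cluster C, 4 were higher in cord and 4 in muscle, near the shares of all tested genes (53% and 39.6%). With library totals cluster C had 8 higher in cord and 1 in muscle. Hoxb8 had 92.0, 113 and 128 CPM in cord and 0.278 to 0.805 in muscle (7.75 ± 0.09; edgeR adjusted p = 1.26e-29), and Hoxb9 had 6.74. With TMM scaling Hoxc10, a gene of the lumbar cord and hindlimb, was the reverse: 41.4 to 51.0 CPM in cord, 116 to 137 in gastrocnemius and 130 to 175 in quadriceps (-1.49 ± 0.05). In TPM the tissues overlapped for Hoxc10, at 110 to 127 in cord, 103 to 129 in gastrocnemius and 115 to 130 in quadriceps. Hoxa10 was shared at 24.7 to 31.6 CPM in cord and 19.4 to 24.6 in muscle (0.38 ± 0.04). Hoxc12, Hoxc13 and Hoxd11 were cord-restricted, at 2.71, 2.204 and 5.74 CPM on average. Hoxa13 was higher in muscle (-2.53 ± 0.15), at 2.43 CPM in gastrocnemius and 0.467 in quadriceps. With library totals Hoxa4, Hoxc5, Hoxc9 and Hoxc11 turned to cord, and Hoxc10 and Hoxa13 did not.

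**Figure D5:**
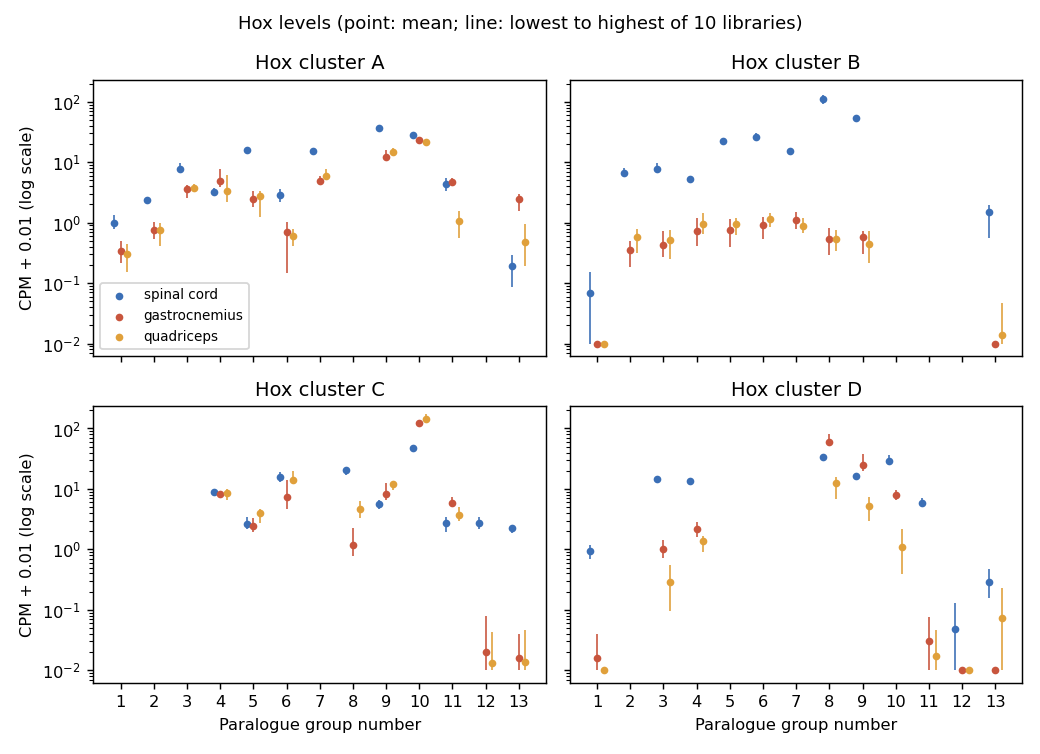
Level of each Hox gene (vertical axis, CPM + 0.01, log scale) by paralogue group number (horizontal axis) in clusters A to D, with points for the mean and lines from the lowest to the highest of 10 libraries of spinal cord, gastrocnemius and quadriceps. On this scale cluster B genes 2 to 9 lie above both muscles in cord, Hoxc10 lies below them, and in cluster D the gastrocnemius lies above the quadriceps for genes 8 to 10.

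The mean of both muscles hides genes on which the muscles themselves differ. In 32 genes cord lay between them, with opposite calls against each muscle: 17 above gastrocnemius and below quadriceps, and 15 the other way. Hoxd8, at 31.7 to 38.1 CPM in cord, 53.8 to 81.0 in gastrocnemius and 6.93 to 15.9 in quadriceps, met the rule for shared genes against their mean although the 3 tissues did not overlap. Its log2 fold change was 0.32 ± 0.08 against their mean, -0.80 ± 0.09 against gastrocnemius and 1.44 ± 0.09 against quadriceps. Pax3 averaged 1.09 CPM in cord, 0.208 in gastrocnemius and 1.64 in quadriceps, and Katnal2, a katanin-like microtubule protein, 2.31, 0.964 and 5.75. Ibsp and Pappa2 also lay above gastrocnemius and below quadriceps. Top2a, Pclaf and Pimreg, genes of dividing cells, lay below gastrocnemius and above quadriceps at 1.80 CPM or less in all tissues. Without the libraries of number 3.1 and gastrocnemius 2.2 the count was 100, and with library totals 18.

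The tissue contrast was repeated in 29 sedentary libraries at 18 months, 10 of cord, 10 of gastrocnemius and 9 of quadriceps. Of 18322 tested genes 17052 were called, 6455 more than 2-fold higher in cord and 4008 in muscle. At both ages 6096 genes were in the first group and 3670 in the second, and none was in opposite groups at the 2 ages. Of the restricted genes at 10 months, 292 of 390 in cord (74.9%) and 54 of 68 in muscle (79.4%) met the same limits again, out of 374 and 82 at 18 months (78.1% and 65.9%). Shared genes numbered 2560, of which 1977 were shared at both ages, 83.4% of the 10-month set and 77.2% of the 18-month set. Paralogue switches numbered 50, and 47 of the 48 at 10 months were among them.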

How the data were processed

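RNA-seq read counts per gene were analysed for 30 libraries of spinal cord, gastrocnemius and quadriceps. The deposited table holds whole-number counts per gene, made by the authors, with no normalization. Per the submitters' processing notes, the aligner was STAR (2.5.2b) and the genome build GRCm38.p5. Which program counted the reads, and whether by strand, is not given in the sources used here. Rows without a gene symbol, 49 in number, were kept and went through the same filter as the others.

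Genes were kept by edgeR's filterByExpr with a minimum count of 10 and a total of 15. Counts were scaled with TMM factors and fitted in edgeR 4.0.16 (limma 3.58.1, R 4.3.3) with a term for tissue and a term for the number in the title. The contrast was cord minus the mean of both muscles, tested with the quasi-likelihood F test and, against a 2-fold difference, with glmTreat, each with Benjamini-Hochberg adjustment at 0.05. Standard errors (SE) were derived from the fold change and its F value. TPM was computed from the counts and gene lengths, with a pseudocount of 0.1 in log2 ratios. The scripts were tested on simulated data.

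As a check of pairing, deviations from the tissue mean were correlated over 10784 genes. Libraries of the 2 muscles with the same number had r of 0.100 to 0.949, with 10 of 10 over 0.1. Cord and gastrocnemius had 3 of 10 over 0.1, and cord and quadriceps 3 of 10. The library of the same number was the best match in 6 of 10 cases between the muscles, 1 between cord and gastrocnemius and 3 between cord and quadriceps. The highest r, 0.949, was that of number 3.1, which stood apart in both muscles. Agreement by number was thus partial between the muscles and weaker between cord and muscle, and the block was kept as part of the design.

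The gene lists, pairs and limits were chosen with earlier results of these data known. Genes were named by rule: the 10 largest folds each way at 10 CPM or more, the 10 most abundant restricted and shared genes, both genes of each pair, up to 6 members of each list with the largest differences or going against their list, cell type markers, and up to 5 genes each way between the muscles. Predicted genes, pseudogenes and small RNAs were left out. Some genes that these rules name, and 1 pair, are not reported here. Further list members were named after their values were seen, to show the range of a list. Alternatives covered scaling, the low-count filter, the block, limits, pseudocount, muscle reference, DESeq2 1.42.0 and left-out libraries.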

Additional observations from a re-analysis of the deposited data

Results flagged for a closer look

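In each tissue the highest or lowest of 10 libraries was compared with the others by Dixon's criterion, for 46 genes and 8 library measures. Of 162 groups 48 held such a library, where chance gives about 1 in 20. Quadriceps 3.1 accounted for 17, gastrocnemius 3.1 for 11, gastrocnemius 2.2 for 9 and cord 3.1 for 4.

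Cord 3.1 stood apart in glial and vessel genes. It was highest for the microglia sum (497 CPM), the endothelial sum (605 CPM) and Cx3cr1 (34.2 CPM), and lowest for Opalin (11.1 CPM). Cord 3.3 was highest for Avil (1.605 CPM), and cord 2.2 held the only Chrnd read (0.0144 CPM).

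Number 3.1 stood apart in both muscles. It was lowest for Myh4 (51867 CPM in gastrocnemius, 51552 in quadriceps), Ampd1 (474 and 286.9), Gnas (1206 and 1259), Ckb (4.74 and 3.55), Eno3 (2824 and 2481) and Aqp4 (1.89 and 1.34). It was highest for Myf6 (255 and 193) and Avil (45.9 and 58.2). In gastrocnemius 3.1 Rpl3 was highest (86.5 CPM), and Hoxa10 (20.2) and the red cell sum (77.3) were lowest. In quadriceps 3.1 the lowest values were those of Myhas (7.05 CPM), Rpl3l (388), Cox6a1 (15.6), Ldha (1312), Ldhb (112), Pvalb (6168.5), the sum of Prx and Pmp22 (27.0), the endothelial sum (354) and the sarcomere median (71.1% of the muscle level).

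Gastrocnemius 2.2 was highest for Acta1 (58045 CPM), Psap (1322), Rpl3l (882), Cox6a2 (1368), Cox6a1 (31.4), Hoxd8 (81.0) and Pvalb (18666), and lowest for Snap23 (32.9) and the mitochondrial share (7.15%). Gastrocnemius 1.3 was highest for Chat (0.146 CPM) and Sall1 (0.183). Quadriceps 2.1 was highest for Mbp (34.1 CPM), quadriceps 2.3 for the red cell sum (846) and quadriceps 3.2 for the mitochondrial share (18.2%).

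In 32 genes the muscles differed from cord in opposite directions, and 10 of them were named by rule. They were chosen for this, so that a difference between the muscles is fixed by the choice and is given without a test. The log2 differences, gastrocnemius minus quadriceps, were -5.10 for Ibsp, -2.57 for Katnal2, -3.23 for Pappa2, -2.999 for Pax3 and -0.86 for Ptgis. They were 2.53 for Tecrl, 2.35 for Pimreg, 2.22 for Top2a, 2.0 for Pclaf and 2.24 for Hoxd8.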

How the results depend on the processing

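With library totals in place of TMM factors, 10222 genes were more than 2-fold higher in cord and 1725 in muscle, the restricted sets held 662 and 32 genes, and cord lay between the muscles for 18. Emcn, Mbnl2, Hoxa4, Hoxc5, Hoxc9 and Hoxc11 then turned to cord, and among genes refitted singly these log2 fold changes did so: Psap 1.03, Gnas 0.85, Hspa8 0.95, Kif1b 0.99, Ddx5 0.81, Tecr 0.82, Rps6 0.58, Flt1 0.94 and Camk2b 0.92. Without the low-count filter 10125 genes were more than 2-fold higher in cord. A 4-fold threshold left 1829 genes in muscle. A limit of 0.5 CPM in the other tissue gave restricted sets of 1305 and 233, and at least 5 CPM in the tissue gave 132 and 11. Shared genes numbered 742 with a margin of 0.25 and 1508 at 10 CPM or more.

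Leaving out each number in turn gave 16453 to 16827 called genes, 6300 to 6542 more than 2-fold higher in cord, 3823 to 4160 in muscle, restricted sets of 386 to 412 and 68 to 92, 2266 to 2502 shared genes, 48 to 52 switches and 23 to 50 genes between the muscles. The highest of these last, 50, was without number 3.1. Without number 3.1 and gastrocnemius 2.2, an alternative added after seeing the data for this result, it was 100. The cause was not tested.

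Without the replicate block 16486 genes were called, 6472 and 3869 were more than 2-fold different, 2210 were shared and 24 lay between the muscles. The restricted sets (390 and 68) and the 48 switches do not use the block. DESeq2 called 16634 genes. Over all alternatives, 156 of 171 values of the counts stayed within 1.5 times. This tally compares the size of a count, not its members, and some counts could not change in some alternatives. Shared genes with library totals fall within it, although none of them was in the main set.

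Precision is limited by the number of samples for most genes and by reads for restricted ones: 3 reads over a tissue correspond to 0.00472 CPM in cord and 0.0051 CPM in muscle, which covers counting error only.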

Other observations

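Ciliated and ependymal genes, which belong to the lining of the central canal, were higher in cord in 10 of 11 tested cases. The share over all tested genes was 53%, and the list had a median log2 fold change of 3.43. Dnah5 and Ccdc153, parts of motile cilia, were cord-restricted, and Foxj1, the factor that drives motile cilia, had 8.67. Rarres2, chemerin, was higher in muscle (-1.12). Proteasome core genes were higher in muscle in 21 of 22 cases (39.6% of all tested genes) with a median of -1.25, and Psmc5 was shared. With library totals 4 were higher in cord and 10 in muscle. Among 30 genes described in both muscle fibres and central nervous cells, 7 were higher in cord and 23 in muscle, beside 53% and 39.6% of all tested genes.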
